A study of Mus musculus with 12 samples.

Results

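The S100 genes measured here are S100a1, S100a4, S100a6, S100a8, S100a9, S100a10, S100a11 and S100a13. They were chosen by symbol as members of 1 gene family, with earlier results of these data known, and they are 8 of the 14460 genes in the deposited table. All 8 had a mean level high enough to be tested. The table holds 1 further gene whose symbol is S100 followed by a letter, S100a16.

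RNA of sorted heart macrophages was sequenced in 12 libraries, 3 for each of 4 groups, from mice aged 2-3 month. Every mouse, the uninjured ones included, was Cx3cr1GFP/+, with GFP in place of 1 copy of the chemokine receptor gene Cx3cr1. Day 0 cells came from hearts without surgery, and day 3, day 7 and day 30 cells came from hearts that number of days after cryoinjury, a freezing wound that serves as a model of infarction. The sorting gate was Ly6c-low with CX3CR1-high on days 0, 7 and 30, but Ly6c-high with CX3CR1-low on day 3, so time and sorting gate cannot be told apart in any comparison with day 3. The labels state that replicates were biologically independent, and do not say whether animals were pooled. Levels are given as signal, the authors' normalised read count, and as mean ± SD with n = 3.

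S100 proteins are small EF-hand proteins of vertebrates that work as dimers. On binding calcium most of them open a cleft that grips partner proteins such as annexins and myosin, and several are also released and act on cell surface receptors, among them RAGE (gene Ager) and TLR4. S100a8 and S100a9 form calprotectin, a main cytosolic protein of neutrophils and of classical monocytes, and S100a1 is best known from cardiomyocytes, where it tunes calcium cycling and contraction. S100a10 is the exception of the family: its loops have lost calcium binding, and it is held in a complex with annexin A2.

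All 8 genes lie on mouse chromosome 3 within 3054 kb (GRCm38, GENCODE M21). S100a1 (90511034 to 90514392, minus strand) and S100a13 (90514435 to 90524581, plus strand) start back to back with 42 bases between them. S100a4 (90603771 to 90606045, plus), S100a6 (90612882 to 90624181, plus), S100a8 (90668978 to 90670035, plus) and S100a9 (90692632 to 90695721, minus) follow. S100a11 (93520488 to 93526287, plus) and S100a10 (93555080 to 93564643, plus) lie further along. The principal transcripts are short, at 486 to 731 bases, with 3 exons each except for S100a13, which has 4.

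The promoter windows of the genes whose levels moved most, and of the calprotectin pair, are given first, because neighbours in this cluster followed different courses. Each is the RefSeq window (GRCm38.p6) of 250 bases before to 50 bases after the annotated start, written 5′ to 3′ on the gene's own strand. RefSeq windows matched 7 of the 8 genes, all but S100a10. Capitals mark the TATA box (TATAAA), the C/EBP motif (TTNNGNAA), the AP-1 motif (TGANTCA) and the GC box (GGGCGG), each searched on both strands. The windows are chr3:90603520-90603819 for S100a4, chr3:90612644-90612943 for S100a6, chr3:93520246-93520545 for S100a11 and chr3:90668821-90669120 for S100a8, all on the plus strand, and chr3:90695672-90695971 on the minus strand for S100a9.
S100a4: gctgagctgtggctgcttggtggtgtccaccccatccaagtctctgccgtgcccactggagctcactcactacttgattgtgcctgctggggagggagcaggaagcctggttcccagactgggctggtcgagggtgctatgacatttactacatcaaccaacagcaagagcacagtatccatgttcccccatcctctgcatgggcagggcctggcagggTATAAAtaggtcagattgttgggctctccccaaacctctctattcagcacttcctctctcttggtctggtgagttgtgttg
S100a6: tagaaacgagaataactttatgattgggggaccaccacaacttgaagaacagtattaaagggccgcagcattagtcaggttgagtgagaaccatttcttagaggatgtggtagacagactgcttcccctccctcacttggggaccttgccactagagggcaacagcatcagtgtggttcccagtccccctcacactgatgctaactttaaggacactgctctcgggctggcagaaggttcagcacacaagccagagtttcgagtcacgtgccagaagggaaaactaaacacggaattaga
S100a11: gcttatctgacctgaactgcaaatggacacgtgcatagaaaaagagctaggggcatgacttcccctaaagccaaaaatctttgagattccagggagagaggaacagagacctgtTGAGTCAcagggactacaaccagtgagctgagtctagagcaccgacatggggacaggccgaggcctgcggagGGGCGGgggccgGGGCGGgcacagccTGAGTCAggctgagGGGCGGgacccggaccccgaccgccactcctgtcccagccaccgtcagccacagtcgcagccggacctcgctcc
S100a8: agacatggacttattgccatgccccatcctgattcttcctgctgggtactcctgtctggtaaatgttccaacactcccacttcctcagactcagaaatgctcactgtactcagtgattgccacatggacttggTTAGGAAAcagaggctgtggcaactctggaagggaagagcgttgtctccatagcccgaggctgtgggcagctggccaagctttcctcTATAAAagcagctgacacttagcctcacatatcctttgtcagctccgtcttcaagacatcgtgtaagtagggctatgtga
S100a9: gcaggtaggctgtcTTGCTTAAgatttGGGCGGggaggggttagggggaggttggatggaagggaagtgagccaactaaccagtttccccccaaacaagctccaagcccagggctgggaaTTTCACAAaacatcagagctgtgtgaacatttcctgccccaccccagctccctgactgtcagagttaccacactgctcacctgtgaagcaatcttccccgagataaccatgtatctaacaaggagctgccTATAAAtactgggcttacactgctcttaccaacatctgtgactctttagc

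TATAAA began at position -31 in S100a4 and at position -30 in S100a8, counted from the RefSeq start as 1, and at position 1 itself in S100a9. This motif stood in 13.6% of the 32817 RefSeq mouse windows of the same length. S100a11, which has no TATAAA in its window, held 2 AP-1 matches, at positions -136 and -38, and 3 GC boxes; 7.81% of all windows held an AP-1 match and 35.6% a GC box. C/EBP matches were found at position -117 in S100a8, TTAGGAAA, and at positions -236 and -130 in S100a9, but 40.7% of all windows held one. S100a9 also held 1 GC box, at position -223. The S100a6 window had none of the capitalised motifs. S100a1 and S100a13 share 204 bases of their windows, so the window of S100a13, chr3:90514185-90514484 on the plus strand, is shown with the 42 bases between the GENCODE starts of the 2 genes in capitals.
S100a13: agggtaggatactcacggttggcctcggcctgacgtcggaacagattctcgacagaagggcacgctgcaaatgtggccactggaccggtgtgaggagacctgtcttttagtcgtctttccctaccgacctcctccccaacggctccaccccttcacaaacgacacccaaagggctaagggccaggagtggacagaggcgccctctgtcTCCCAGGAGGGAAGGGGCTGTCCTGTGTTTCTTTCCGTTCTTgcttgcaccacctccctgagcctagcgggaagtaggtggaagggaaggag

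The cells carried macrophage markers in every library. All 7 markers were detected, and their summed signal was 3203 to 3876 at day 0, 3524 to 3832 at day 3, 3398 to 4872 at day 7 and 2897 to 3038 at day 30. The single markers did not stay level. At day 3 against day 0, 3 of the 7 were higher and 3 lower, beside 22.1% of all tested genes each way. Fcgr1, Itgam and Cd68 rose, Fcgr1 from a mean of 92.7 to 629. Adgre1, Csf1r and Cx3cr1 fell, Adgre1 from a mean of 638 to 201.5. The sum of 8 Ly6C-high monocyte markers was 3382 to 5168 at day 3, against 1650 to 1784 at day 0. Of these 8 markers, 7 rose and 1 fell, beside 22.1% of all tested genes each way. Ccr2, a chemokine receptor, rose to 1518 ± 182 at day 3, against 268.5 ± 69.7 at day 0 (SD, n = 3 each). F13a1, which makes up most of the day 0 sum, fell to 229.8 ± 38.2, against 1377 ± 122 (log2 fold change -2.59, limma adjusted p = 2.5e-07). Depth was 5828904 to 13199576 reads per library. A few libraries stood apart from their group. The first day 0 library had lower sums of endothelial markers (15.6, against 139 and 195 in the others) and of fibroblast markers (47.4, against 127 and 136), and the second day 7 library had a fibroblast sum of 2246, against 797 and 579. The day 30 libraries resembled each other more than those of any other group: chi-square per gene between 2 of them was 2.16 to 2.88, against 5.82 to 82.8 within the other groups.

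Over the 4 groups all 8 S100 genes differed (limma F test, Benjamini-Hochberg adjusted p under 0.05), where 63.9% of the 12879 genes tested did. At day 3 against day 0, S100a4, S100a6, S100a10 and S100a11 were higher and S100a1 and S100a13 lower, while S100a8 and S100a9 did not pass. These 6 of 8, 4 higher and 2 lower, stand beside 44.2% of all tested genes, 22.1% higher and 22.1% lower. The median log2 fold change of the 8 genes was 1.29, against -0.02 for all tested genes. In bulk RNA of sorted cells, fewer cells of a type and less RNA per cell cannot be told apart, and this holds for every result below.

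**Figure D1:**
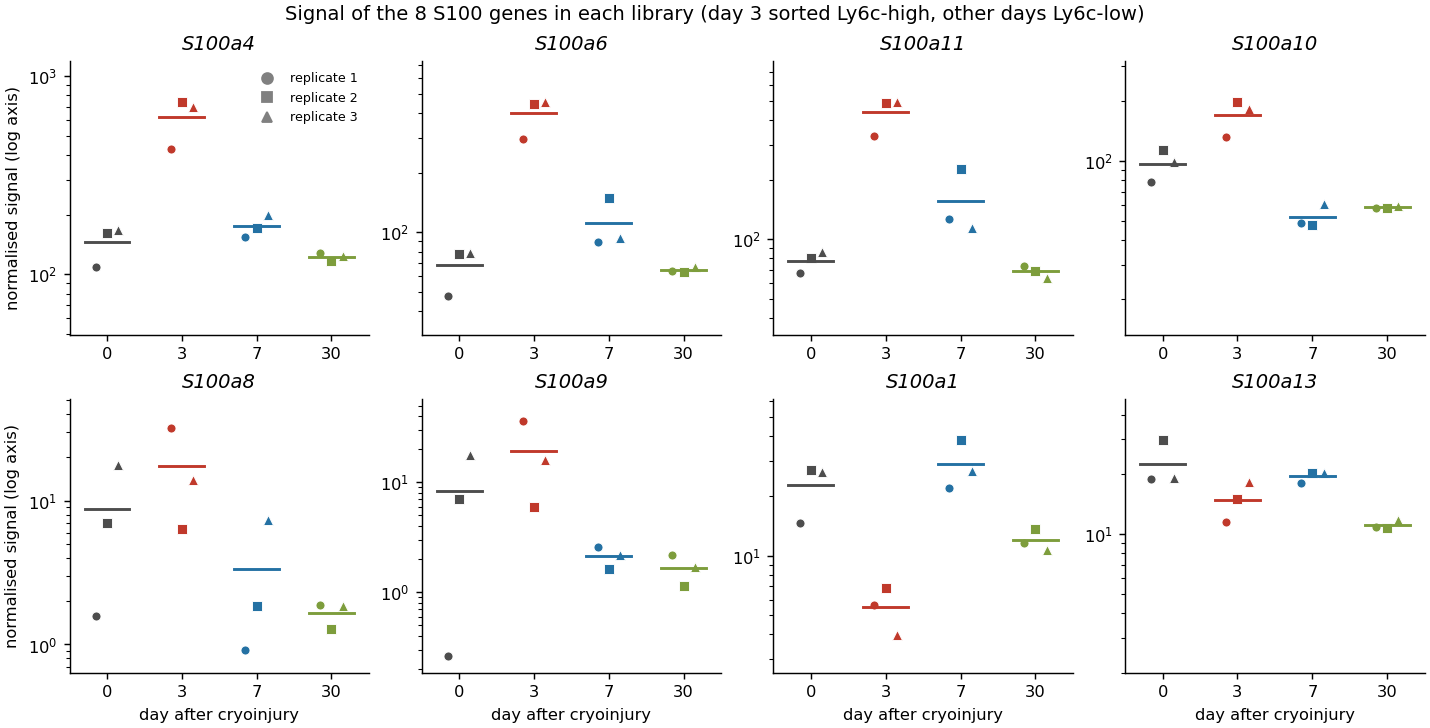
Normalised signal (log axis) of each S100 gene in the 12 libraries by day after cryoinjury; symbols are replicates and bars are group means (n = 3). S100a4, S100a6 and S100a11 stand highest at day 3 in every library, S100a1 stands lowest there, and S100a8 and S100a9 scatter widely within days 0 and 3.

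S100a4, S100a6 and S100a11 rose most. S100a4 binds non-muscle myosin IIA and is linked to cell motility; it is often used as a fibroblast marker although myeloid cells make it too. Its signal was 108, 161 and 167 in the day 0 libraries, 429.8, 744 and 698 at day 3, 155, 172 and 198 at day 7, and 128, 117 and 124 at day 30. Every day 3 library lay above every library of the other days, and the day 7 and day 30 ranges each overlapped that of day 0. S100a4 averaged 624 ± 170 at day 3 and 145 ± 32.3 at day 0 (SD, n = 3 each), a log2 fold change of 2.08 ± 0.21 (SE; limma, adjusted p = 1.0e-06).

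S100a6, or calcyclin, binds annexins and the calcyclin-binding protein Cacybp. Its signal was 47.9, 77.7 and 78.6 at day 0, 295, 446 and 456 at day 3, 89.6, 149.5 and 93.2 at day 7, and 63.8, 63.3 and 66.7 at day 30. Day 3 was again separate from all other days, and the 3 day 7 libraries lay just above those of day 0. The log2 fold change at day 3 against day 0 was 2.54 ± 0.23 (SE; limma, adjusted p = 3.7e-07).

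S100a11 binds the N-terminus of annexin A1 and takes part in membrane repair. It had a signal of 67.3, 80.3 and 85.8 at day 0, 332, 484 and 495 at day 3, 127, 226 and 115 at day 7, and 73.2, 69.5 and 63.8 at day 30. Day 3 lay above day 7 and day 7 above day 0 with no overlap, while days 30 and 0 overlapped. Its log2 fold change at day 3 against day 0 was 2.46 ± 0.22 (SE; limma, adjusted p = 3.9e-07). Processed pseudogenes resemble its transcript, the nearest, Gm12854, at 99.0% identity over 297 of 511 bases; Gm12854 had a mean signal of 1.01, so S100a11 reads may be divided in part.

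In each of these 3 genes the lowest day 3 value was that of replicate 1. The Ly6C-high monocyte sum was also lowest in that library, at 3382, against 5168 and 4606 in replicates 2 and 3. The summed signal of 10 fibroblast markers, S100a4 not among them, was 47.4 to 136 at day 0, 291 to 389 at day 3, 579 to 2246 at day 7 and 185 to 194 at day 30, highest at day 7 and not at day 3. The part of either marker set in the S100 levels was not tested. The day 3 calls of S100a4, S100a6, S100a11 and S100a1 held in all 24 alternative settings.

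**Figure D2:**
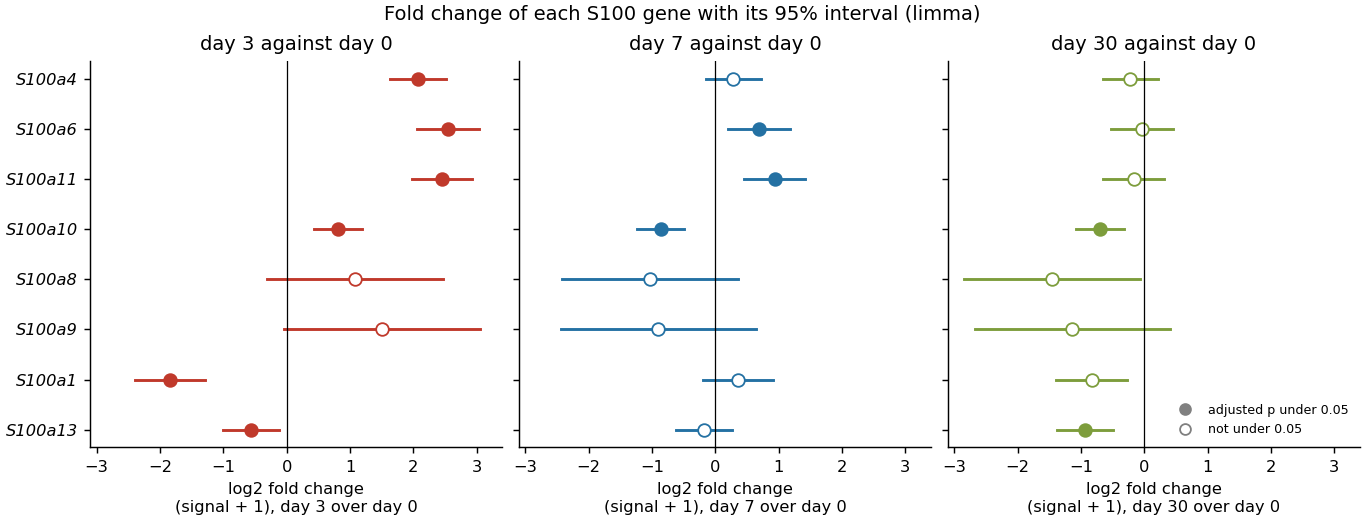
Log2 fold change of signal + 1 for each S100 gene at days 3, 7 and 30 over day 0, with 95% intervals from limma; filled points have an adjusted p under 0.05. S100a10 lies right of 0 at day 3 and left of 0 at days 7 and 30, whereas S100a11 lies right of 0 at days 3 and 7.

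At day 7 against day 0, S100a6 and S100a11 were higher and S100a10 was lower, 3 of 8 beside 21.6% of all tested genes, 11.4% higher and 10.2% lower. S100a11 averaged 156 ± 60.9 at day 7 and 77.8 ± 9.51 at day 0 (SD, n = 3 each), a log2 fold change of 0.93 ± 0.22 (SE; limma, adjusted p = 0.0085). S100a6 averaged 111 ± 33.6 at day 7 and 68.1 ± 17.5 at day 0, a log2 fold change of 0.69 ± 0.23 (SE; limma, adjusted p = 0.044). The second day 7 library, which carried the fibroblast sum of 2246, was the highest for both genes. Without it S100a6 was 0.45 higher on the log2 scale and no longer passed (limma, adjusted p = 0.16), and without the first day 0 library it did not pass either (0.46, limma adjusted p = 0.17); the call was lost in 14 of the 24 alternative settings. S100a11 still passed without the second day 7 library (0.63, limma adjusted p = 0.019) and without both of those libraries (0.53, limma adjusted p = 0.041). S100a4, at 175 ± 21.8 on day 7 and 145 ± 32.3 on day 0, had a log2 fold change of 0.28 with a 95% interval of -0.16 to 0.72.

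At day 7 against day 3, S100a4, S100a6, S100a8, S100a9, S100a10 and S100a11 were lower and S100a1 was higher, 7 of 8 beside 46.8% of all tested genes, 23.3% higher and 23.5% lower (limma, adjusted p under 0.05). The same 7 genes moved the same way at day 30 against day 3, where 39.4% of all tested genes passed, 19.2% higher and 20.3% lower. The log2 fold changes at day 7 against day 3 were -1.79 for S100a4, -1.85 for S100a6, -1.52 for S100a11 and -1.68 for S100a10. S100a13 passed in neither comparison, at 0.39 and -0.37. At day 30 against day 7, S100a1, S100a6, S100a11 and S100a13 were lower, 4 of 8 beside 39.6% of all tested genes, 19.9% of them lower. S100a1 had a log2 fold change of -1.18 ± 0.26, S100a11 of -1.10 ± 0.22 and S100a6 of -0.73 ± 0.23 (SE; limma, adjusted p = 0.0030, 0.0016 and 0.021). Without the second day 7 library S100a6 no longer passed (-0.49, limma adjusted p = 0.089). With the day 30 libraries averaged as 1 sample, no S100 gene passed against day 7, and 4 of the 7 passed against day 3.

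S100a10 took another course. With annexin A2 it forms a complex that binds plasminogen activator and plasminogen at the cell surface. Its signal was 78.0, 113 and 98.9 at day 0, 133, 199 and 182 at day 3, 48.5, 47.5 and 60.9 at day 7, and 58.1, 57.8 and 59.3 at day 30. All libraries of days 7 and 30 lay below the lowest day 0 library, and all day 3 libraries lay above the highest. Against day 0, S100a10 was 0.82 ± 0.18 higher on the log2 scale at day 3 and had a log2 fold change of -0.87 ± 0.18 at day 7 (SE; limma, adjusted p = 0.0016 and 0.0030). The day 3 rise did not pass after quantile normalisation (0.39, limma adjusted p = 0.093), whereas the day 7 fall held in all 24 alternative settings.

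Anxa2, the gene of its partner, did not follow it. Anxa2 signal was 55.3, 75.4 and 79.3 at day 0, 248, 354 and 352 at day 3, 95.2, 139 and 134 at day 7, and 62.6, 64.7 and 64.6 at day 30. It was higher than day 0 at day 3 (2.17 ± 0.19 on the log2 scale, limma adjusted p = 2.4e-07) and at day 7 (0.80 ± 0.19, limma adjusted p = 0.0076). The ratio of Anxa2 signal to S100a10 signal, which is not per length and is read only across days, was 0.668 to 0.802 at day 0, 1.78 to 1.93 at day 3, 1.97 to 2.92 at day 7 and 1.08 to 1.12 at day 30. Day 3 and day 7 lay above day 30, and day 30 above day 0, in every library. The ratio differed between the 4 groups (exact permutation test of the spread between group means, p = 6.5e-05, the smallest it can give). This test has no direction and ran over 369600 arrangements of the 12 libraries. Its Benjamini-Hochberg adjusted p was 0.00046 over 7 ratios chosen after the values were seen.

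**Figure D3:**
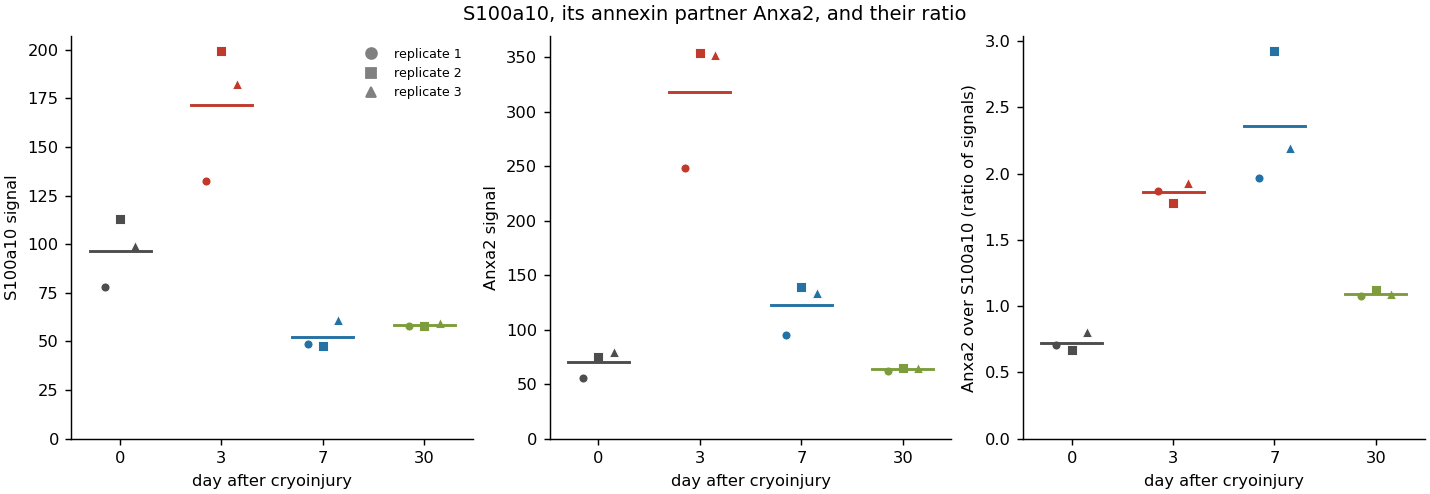
Signal of S100a10, signal of Anxa2, and the ratio of the 2 signals in each library by day after cryoinjury; bars are group means (n = 3). S100a10 falls below its day 0 level at days 7 and 30, Anxa2 is above its day 0 level at day 7, and the ratio is highest at day 7, at 1.97 to 2.92.

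The other ratios set the S100 genes against each other. S100a4 over S100a10 had a mean log2 ratio of 0.58 at day 0, 1.84 at day 3, 1.73 at day 7 and 1.06 at day 30, and differed between groups (exact permutation test, adjusted p = 0.00046). For S100a6 over S100a4, S100a11 over S100a4 and S100a6 over S100a11 no difference between the groups passed (exact permutation test, adjusted p = 0.15, 0.11 and 0.11). The log2 ratio of S100a6 to S100a4 was -0.63 ± 0.10 at day 3 and -1.09 ± 0.06 at day 0 (SD, n = 3 each), and that of S100a11 to S100a4 was -0.23 ± 0.59 at day 7 and -0.88 ± 0.17 at day 0.

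The annexin and cytoskeletal partners of S100 proteins were described from a list of 14 genes, all of them tested. At day 3 against day 0, 7 rose and 1 fell, beside 22.1% of all tested genes each way, with a median log2 fold change of 0.45, against -0.02 for all genes. The 4 largest rises were Anxa1 (2.36 ± 0.16), Anxa2 (2.17 ± 0.19), Anxa4 (1.55 ± 0.17) and Iqgap1 (0.91 ± 0.14), a scaffold of the actin cortex; Tpm1, a tropomyosin that stabilises actin, fell (-0.91 ± 0.25). Anxa1, the partner of S100a11, had a signal of 244 ± 25.9 at day 3 and 47.1 ± 7.08 at day 0 (SD, n = 3 each; limma, adjusted p = 2.1e-08). At day 7 against day 0, 5 rose and 1 fell, beside 11.4% and 10.2% of all tested genes. The fall was Ahnak, a giant scaffold that S100a10 and annexin A2 bind, at -1.05 ± 0.17 (SE; limma, adjusted p = 0.00050); its signal was 1332, 1055 and 1201 at day 7, against 2512, 2503 and 2378 at day 0. Anxa1 was the only one of the 14 to pass at day 30 against day 0, at 0.87 ± 0.16 (SE; limma, adjusted p = 0.0063).

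Among the plasmin and export partners of S100a10 and S100a13, 6 of 8 listed genes were tested and 4 rose at day 3 against day 0, beside 22.1% of all tested genes, with a median log2 fold change of 1.06 over the 6, against -0.02 for all genes. They were Plaur, the urokinase receptor (3.66 ± 0.28), Il1a, an exported cytokine (1.36 ± 0.43), Plau, urokinase (1.14 ± 0.19), and Plgrkt, a plasminogen receptor (0.97 ± 0.17). Plaur had a signal of 43.8, 85.8 and 103 at day 3, against 6.47, 3.57 and 4.89 at day 0. It was still higher at day 30 than at day 0 (1.37 ± 0.28, limma adjusted p = 0.011), when S100a10 was lower.

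At day 30 against day 0 only S100a10 and S100a13 passed, both lower, 2 of 8 beside 6.18% of all tested genes, 2.73% lower. S100a10 averaged 58.4 ± 0.772 at day 30 and 96.6 ± 17.6 at day 0 (SD, n = 3 each), a log2 fold change of -0.70 ± 0.18 (SE; limma, adjusted p = 0.030). Neither call was firm. Each was lost without the second day 0 library (limma adjusted p = 0.14 for S100a10 and 0.084 for S100a13), without any 1 of the day 30 libraries, with the day 30 libraries averaged as 1 sample, and when a trend on transcript length was removed. Without single day 30 libraries the log2 fold changes stayed at -0.69 to -0.71 for S100a10 and -0.92 to -0.97 for S100a13. That of S100a10 was also lost without the third day 0 library (limma adjusted p = 0.099). Without the first day 0 library 5 S100 genes passed, S100a1, S100a8 and S100a9 in addition, all lower, beside 955 of the 12879 tested genes.

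S100a8 and S100a9 differed from the other genes in their scatter. S100a8 signal was 1.58, 7.02 and 17.6 at day 0, 31.8, 6.38 and 13.9 at day 3, 0.908, 1.85 and 7.30 at day 7, and 1.87, 1.27 and 1.84 at day 30. S100a9 signal was 0.264, 7.13 and 17.9 at day 0, 35.9, 6.02 and 16.02 at day 3, 2.57, 1.62 and 2.19 at day 7, and 2.18, 1.13 and 1.71 at day 30. Days 3 and 0 overlapped for both genes. Within day 0 the highest library had 11.1 times the S100a8 signal and 67.9 times the S100a9 signal of the lowest, which rested on 12 and 2 reads.

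The ratio of S100a8 to S100a9 signal was 0.98 to 6 at day 0, 0.868 to 1.06 at day 3, 0.353 to 3.33 at day 7 and 0.857 to 1.12 at day 30. The calprotectin genes thus stood close to each other in every library of days 3 and 30 and in day 0 replicates 2 and 3, but not in day 0 replicate 1 or in day 7 replicates 1 and 3. The test took the log2 ratio of signal + 1, which draws ratios of low signals towards 1. No difference of that log2 ratio between the groups passed (exact permutation test, adjusted p = 0.87). S100a8 was 1.08 ± 0.65 higher on the log2 scale at day 3 than at day 0 and S100a9 was 1.50 ± 0.73 higher, and neither passed (limma, adjusted p = 0.20 and 0.11). Without the third day 0 library both passed (1.75 and 2.36, limma adjusted p = 0.046 and 0.014). At day 7 against day 3 both were lower, S100a8 by a log2 fold change of -2.11 ± 0.65 and S100a9 by -2.40 ± 0.73 (SE; limma, adjusted p = 0.016 and 0.014). At day 30 against day 3 the values were -2.53 and -2.64 (limma, adjusted p = 0.0061 and 0.0092). Those calls leaned on the first day 3 library, which had the highest signal of both genes: without it the day 7 calls were lost (-1.56 and -1.82, limma adjusted p = 0.086 and 0.075), as was the day 30 call of S100a9 (-2.05, limma adjusted p = 0.0505). The S100a8 call at day 7 was also lost without the first day 7 library (-1.66, limma adjusted p = 0.072).

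Of 12 other neutrophil markers, 6 were in the table, and Ly6g, Mpo, Elane, Camp, Ltf and Ngp were not analysed here. The summed signal of the 6 was 59.9 to 84.6 at day 0, 240 to 276 at day 3, 99.2 to 159.5 at day 7 and 67.6 to 71.4 at day 30. Csf3r, the G-CSF receptor, which monocytes also carry, made up most of it. Retnlg, a gene of mature neutrophils, was near 0, at 1.25, 0.354 and 0.265 at day 3 and 0.396, 0.524 and 1.27 at day 0. Of the 5 that could be tested, 4 were higher and Mmp9 lower at day 3 than at day 0, beside 22.1% of all tested genes each way. Lcn2, an iron-siderophore binder of neutrophil granules, was 6.59 ± 2.13 at day 3 and 0.181 ± 0.314 at day 0 (SD, n = 3 each, limma adjusted p = 2.5e-06). It averaged 0.0487 at day 7 and 0.21 at day 30. Lcn2 thus reached the mean signal of 1 needed for testing only through day 3. Its p is therefore no separate support for that rise. Within day 3 the markers did not share an order with S100a8 and S100a9, which were highest in replicate 1: Cxcr2 and Retnlg were highest there too, whereas Lcn2 (4.98, 5.79 and 9.001) and Csf3r (149, 164 and 185) were lowest there. The part of other cells in these levels was not tested. Mmp8, a neutrophil collagenase, was much alike in day 3 replicates 1, 2 and 3, at 66.7, 60.6 and 64.1, against 0.132, 2.20 and 4.35 at day 0.

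**Figure D4:**
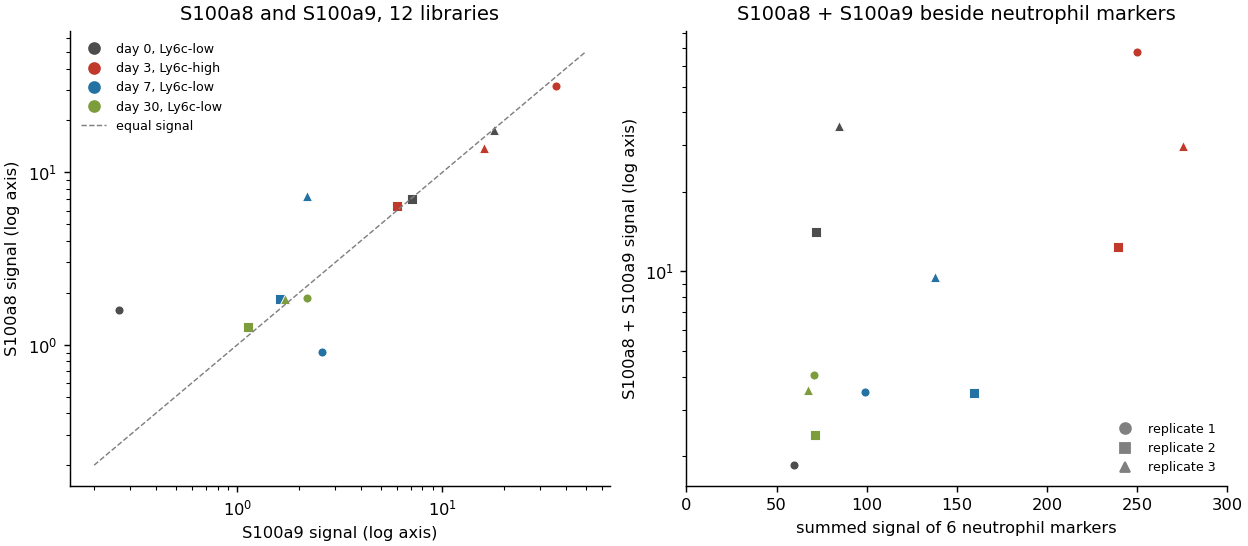
Left, S100a8 against S100a9 signal in the 12 libraries (log axes), with a line of equal signal. Right, their summed signal (log axis) against the summed signal of 6 other neutrophil markers; the day 0 libraries span 1.85 to 35.5 in S100a8 + S100a9 at marker sums of 59.9 to 84.6.

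The receptors through which released S100 proteins act were described together with their signal proteins, from 13 genes, of which 10 were tested. Ager was not analysed here. At day 3 against day 0, 5 rose and 1 fell, beside 22.1% of all tested genes each way, with a median log2 fold change of 0.60, against -0.02 for all genes. Myd88, the adaptor below TLR4, rose by 1.79 ± 0.18 on the log2 scale, and Traf6, also a signal protein, by 0.92. Alcam and Scarb1 rose by 1.04 and 1.02. Cd36, a scavenger receptor that also binds S100a8 and S100a9 complexes, fell to 114 ± 68.1 at day 3, against 415 ± 83.7 at day 0 (SD, n = 3 each; log2 fold change -2.01, limma adjusted p = 9.4e-05). Tlr4 itself had 118 ± 11.1 at day 3 and 135 ± 28.4 at day 0, and did not pass (limma, adjusted p = 0.48). Another list held 7 subunits and Rac proteins of the phagocyte oxidase, to which calprotectin delivers arachidonic acid. At day 3 against day 0, 1 of the 7 rose (Ncf4, 0.70 ± 0.20), beside 22.1% of all tested genes. At day 7 against day 0, 3 rose (Cyba 1.03, Rac2 0.62 and Ncf1 0.52), beside 11.4%. Their median log2 fold changes were 0.23 and 0.29, against -0.02 for all genes in both comparisons. Of 19 other EF-hand genes, 6 rose and 1 fell at day 3 against day 0, 7 of 19 beside 44.2% of all tested genes, with Hpcal1 (0.94) and Efhd2 (0.68) among the rises, and their median log2 fold change was 0.17.

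S100a1 was the only one of the 8 genes whose level was lowest at day 3. Its signal was 14.7, 27.1 and 26.3 at day 0, 5.65, 6.85 and 3.97 at day 3, 21.95, 38.5 and 26.6 at day 7, and 11.6, 13.6 and 10.7 at day 30. Every day 3 library was below every other library, and days 7 and 0 overlapped. S100a1 averaged 5.49 ± 1.45 at day 3 and 22.7 ± 6.94 at day 0 (SD, n = 3 each), a log2 fold change of -1.84 ± 0.26 (SE; limma, adjusted p = 3.9e-05). It was higher at day 7 than at day 3 by 2.20 ± 0.26 on the log2 scale (SE; limma, adjusted p = 1.0e-05). At day 30 against day 0 it did not pass (-0.83, limma adjusted p = 0.075), but passed in 5 of the 24 alternative settings.

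S100a13, its head-to-head neighbour, helps to export FGF1 and interleukin-1 alpha without a signal peptide. It had a signal of 18.9, 30.0 and 19.2 at day 0, 11.5, 14.99 and 18.3 at day 3, 18.02, 20.4 and 20.3 at day 7, and 10.84, 10.7 and 11.7 at day 30. Day 3 lay just below day 0 and day 30 lay below both days 0 and 7. At day 3 against day 0 its log2 fold change was -0.56 ± 0.21 (SE; limma, adjusted p = 0.038), and the call was lost in 8 of the 24 settings, among them without the second day 0 library (-0.35, limma adjusted p = 0.20) and without the first day 3 library (-0.40, limma adjusted p = 0.15). At day 30 its log2 fold change was -0.94 ± 0.21 against day 0 and -0.76 ± 0.21 against day 7 (SE; limma, adjusted p = 0.015 and 0.0099).

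The 2 neighbours did not move in step. The ratio of S100a1 to S100a13 signal was 0.776 to 1.37 at day 0, 0.217 to 0.492 at day 3, 1.22 to 1.89 at day 7 and 0.908 to 1.26 at day 30, and day 3 lay below all other days. The log2 ratio of signal + 1 differed between the groups (exact permutation test, p = 0.0038, adjusted p = 0.0089).

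Markers of other cell types did not all move with S100a1 at day 3. The fibroblast sum averaged 335 ± 49.5 at day 3 and 103.5 ± 48.8 at day 0. The endothelial sum averaged 121 ± 24.3 at day 3 and 117 ± 91.9 at day 0. Markers of some types were lower at day 3 together with S100a1, first among them those of cardiomyocytes. The summed signal of 12 such genes was 68.2 to 187 at day 0, 8.03 to 12.3 at day 3, 49.4 to 99.3 at day 7 and 15.8 to 17.3 at day 30. All 11 of them that could be tested were lower at day 3 than at day 0, beside 22.1% of all tested genes. At day 30 against day 0, 10 were lower, beside 2.73%. Myl3 was at 0 in all day 3 libraries. S100a1 averaged 29.0 ± 8.53 at day 7 and 22.7 ± 6.94 at day 0, groups that overlapped and did not pass (limma, adjusted p = 0.355). The cardiomyocyte sum averaged 69.7 ± 26.2 at day 7 and 131 ± 59.9 at day 0, and its groups overlapped too. The sum of 4 B cell markers, 14.5 ± 2.32 at day 0, 4.54 ± 2.68 at day 3, 22.6 ± 10.3 at day 7 and 9.1 ± 1.48 at day 30, had the same order of group means as S100a1, and that of 8 T and NK cell markers was 2.24 to 8.24 at day 3, against 12.7 to 66.1 at day 0. The part of these markers in the S100a1 and S100a13 levels was not tested.

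**Figure D5:**
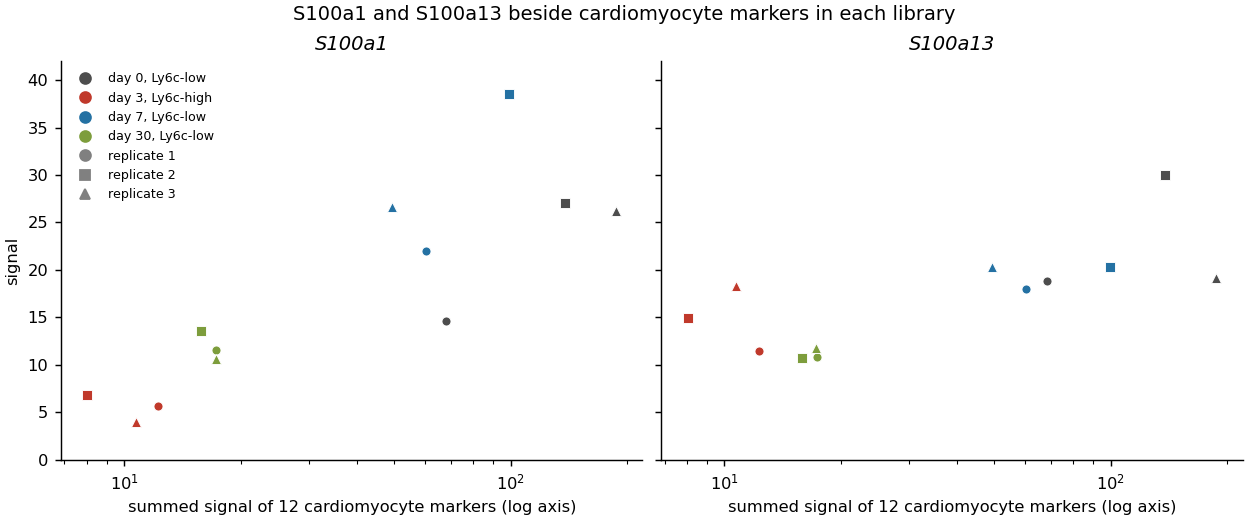
Signal of S100a1 (left) and S100a13 (right) against the summed signal of 12 cardiomyocyte markers (log axis) in each library. The day 3 libraries have the lowest marker sums, 8.03 to 12.3, and the lowest S100a1, 3.97 to 6.85, while S100a13 at day 3 overlaps days 7 and 30.

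Per kilobase of transcript, S100a4 had the highest mean and S100a11 the next among the 8 genes on every day, but at day 7 they differed by less than their spread (352 ± 43.7 for S100a4 and 305 ± 119 for S100a11), and S100a11 was the higher in the second day 7 library. At day 0 S100a4 had 292 ± 64.8 signal per kb, followed by S100a11 at 152 ± 18.6, S100a10 at 141 ± 25.6, S100a6 at 93.1 ± 23.9, S100a1 at 33.5 ± 10.3, S100a13 at 31.7 ± 8.84, S100a8 at 17.95 ± 16.7 and S100a9 at 16.3 ± 17.2. S100a11 and S100a10, S100a1 and S100a13, and S100a8 and S100a9 differed within these pairs by less than their spread. At day 3 the order became S100a4 (1253 ± 341), S100a11 (855 ± 179), S100a6 (546 ± 124), S100a10 (250.2 ± 50.4), S100a9 (37.2 ± 29.3), S100a8 (35.7 ± 26.9), S100a13 (20.9 ± 4.74) and S100a1 (8.11 ± 2.13). S100a10 fell to 8.32% of the summed signal per kb of the 8 genes at day 3 and 7.91% at day 7, against 18.1% at day 0, although its own level rose at day 3. The summed signal of the 8 genes was 337 to 511 at day 0, 1274 to 1907 at day 3, 464 to 657 at day 7 and 334 to 349 at day 30.

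Genes with the most similar course were sought among tested genes (mean signal 10 or more) by Pearson r of log2(signal + 1) over the 12 libraries; r is given as a description only, since libraries of 1 group share their gate and day. F10, coagulation factor X, a gene of the Ly6C-high monocyte marker list, was nearest to S100a4 (r = 0.992) and S100a6 (r = 0.989). F10 averaged 76.2 at day 3, against 2.66 at day 0, 4.59 at day 7 and 2.00 at day 30. It therefore met the limit of 10 only through day 3, where S100a4 and S100a6 were also highest. Anxa2 was the third nearest to S100a6 (r = 0.985). S100a11 was nearest to Lgals9, a galectin (r = 0.991), S100a10 to Thbd, thrombomodulin (r = 0.947), S100a1 to Prmt5, an arginine methyltransferase (r = 0.971), and S100a13 to Ncoa5 (r = 0.938). S100a8 and S100a9 had no gene at 0.9 or above in that set: the nearest were Sugt1 (r = 0.880) and Flt1 (r = 0.841). Between the members, r was 0.98 for S100a4 with S100a6 and for S100a6 with S100a11, 0.92 for S100a8 with S100a9, and 0.66 for S100a10 with S100a11.

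S100a16 (90537254 to 90543151, plus strand), which lies between S100a13 and S100a4, was low, at 1 to 78 reads a library. Its signal was 0.528, 5.35 and 5.80 at day 0, 0.575, 0.945 and 0.132 at day 3, 1.67, 9.02 and 5.41 at day 7, and 0.312, 0.565 and 0.634 at day 30. It was lower at day 3 than at day 0 (-1.42 ± 0.53 on the log2 scale, limma adjusted p = 0.040), with overlapping groups, and the first day 0 library lay with the day 3 values.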

How the data were processed

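RNA sequencing of 12 libraries was deposited as 1 table of 14460 genes. It holds a linear normalised signal per library, with a second block of log2 values that the authors deposited: all 173520 equal the log2 of the signal with values below 1 set to 1, within 1e-09. The submitters' processing notes name cutadapt 1.3, RSEM 1.2.20, edgeR 3.14.0 and GRCm38; which step each served is not given in the sources used here. Dividing by the smallest step of each library turned 100.0% of the values (173520) into whole reads within 0.02 reads. Where 0 reads were counted, up to 3 are allowed for, which is 0.190 to 0.543 in signal; this covers counting error only.

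Log2(signal + 1) was fitted with limma 3.58.1 (variance trend, 4 group means) for the 12879 genes whose signal averaged 1 or more. Each of the 6 comparisons was two-sided. In each of them and in the F test, p was adjusted by Benjamini-Hochberg over all tested genes, with 0.05 as threshold. Fold changes are on the log2(signal + 1) scale, which understates changes of low genes, and each SE uses the spread of all 4 groups together. Ratios were compared by exact permutation of the log2 ratio of signal + 1, and log2 ratios are given on that scale. Printed ranges of ratios are of signal itself. The edgeR 4.0.16 quasi-likelihood test on recovered reads called 5610, 2595, 755, 5965, 5066 and 5076 genes at day 3, 7 and 30 against day 0, day 7 and 30 against day 3, and day 30 against day 7. DESeq2 1.42.0, other pseudocounts and filters, quantile normalisation, median centring, a replicate block, removal of a length trend and leaving out libraries were further alternatives. No pairing of replicates was used. Positions and lengths are from GENCODE M21, which held 14243 of the identifiers (98.5%), and similar transcripts were sought with BLAST 2.17.0. The script was tested on simulated data.

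The 8 members and all gene lists were chosen with earlier results of these data known. Named were all members, S100a16, up to 4 passing genes with the largest change in each list, always Anxa1, Anxa2, Ager and Tlr4, and the 3 genes most similar to each member, of which a part is printed (1 listed gene is not reported here); marker genes and Gm12854 were named after their values were seen.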

Additional observations from a re-analysis of the deposited data

How the results depend on the processing

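Of 1152 values of the S100 genes under 24 alternatives (48 results), 1069 kept direction and side of the threshold, 53 lost the call, 20 gained one and 10 changed sign, none of them past the threshold. The cause of these shifts was not tested. The day 30 comparisons were the least stable. Day 30 against day 0 called 2 S100 genes, and 0 with the day 30 libraries averaged as 1 sample, 0 with the length trend removed, 5 without the first day 0 and second day 7 libraries, and 0 to 5 with single libraries left out. It called 796 of all genes, and 14, 2513 and 235 to 1990 in the averaged, the 2-library and the single-library settings, and 1328 with DESeq2. Averaging day 30, which leaves fewer samples and assumes that the lone one varies like the other groups, gave 4 S100 genes and 2013 genes against day 3, 0 and 815 against day 7, 5 S100 genes in the F test, and 1740 genes at day 7 against day 0.

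Signs turned for S100a1 at day 7 against day 0 without the 2 libraries (-0.14). At day 30 against day 0 they turned with the length trend removed for S100a4 (0.044), S100a6 (0.18) and S100a11 (0.0905), and for S100a6 also with median centring (0.0053) and with single libraries left out (-0.27 to 0.080). At day 30 against day 7 they turned for S100a8 without day 7 replicate 3 (range over single libraries -0.88 to 0.18) and for S100a9 with the length trend removed (0.12), and at day 7 against day 0 for S100a13 without day 0 replicate 2 (range -0.29 to 0.035). With the length trend removed S100a10 was higher at day 30 than at day 7 (0.49, limma adjusted p = 0.028). Same-numbered libraries did not deviate together (median r 0.0049 over 18 pairs, -0.0831 to 0.21). The replicate block called 6, 3 and 3 S100 genes at days 3, 7 and 30 against day 0, beside 5725, 2850 and 835 of all genes. It called 7 at day 7 and 7 at day 30 against day 3, 5 at day 30 against day 7, and 8 in the F test. The main fit called 46.8%, 39.4%, 39.6% and 63.9% of all tested genes there. S100a1 at day 30 against day 0 (limma adjusted p = 0.041) and S100a4 at day 30 against day 7 (limma adjusted p = 0.032) were added. Depth limits S100a8, S100a9 and S100a16 most: 2 reads of S100a9 in the first day 0 library set its value there.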
